A study of Homo sapiens with 4 samples.

Results

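The genes described here encode mitochondrial ribosomal proteins, and they were taken by name: every spot other than a control whose gene name on the array began with MRPL or MRPS followed by a digit. The rule gave 77 genes of 27193 gene names on the array, measured by 92 probes on 164 of 43118 spots. On every array all 92 probes were well above background, none was saturated, and all 77 genes entered the test over 22023 genes. Arrays of 2 samples of MCF10A.B2 cells, named only control in the labels, were set against arrays of 2 samples of that line with a PAK1 shRNA. MCF10A.B2 is a mammary epithelial cell line that carries an ErbB2 receptor which the dimerizer AP1510 can activate, and the shRNA is tetracycline inducible. Every sample, control included, was starved of serum for 3 h and then received AP1510 for 15 min. The labels do not say whether the controls carried an uninduced shRNA or none, and no sample with a non-targeting shRNA was analysed here. The study's methods do not say whether an inducer was given to either group. Responses to an inducer, to shRNA expression as such and to the fall of PAK1 itself therefore cannot be told apart. The sample labels do not say how the 2 samples within a group arose, and the series text speaks of cells from 2 tumors per group, which does not match the labelled cell line, so the p-values measure only the spread between these samples, which may be technical.

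Mitochondria have their own ribosome, which translates the few proteins encoded by mitochondrial DNA, all of them core subunits of the respiratory chain and the ATP synthase. Its RNAs come from mitochondrial DNA, whereas every one of its proteins is encoded in the nucleus, made on cytosolic ribosomes and imported. Part of the proteins descend from those of the bacterial ribosome, and the rest were added in the mitochondrial lineage. The L and S of a gene name stand for the large and the small subunit, although MRPS18A and MRPS30 are now placed in the large subunit, MRPS36 is now known as a subunit of the 2-oxoglutarate dehydrogenase complex, and MRPL42P5 is a pseudogene of MRPL42.

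Many promoters of genes for mitochondrial proteins hold short motifs for the factors GABPA and YY1, and promoter windows of 5 members are shown as examples with and without them. The windows run from 120 bases before to 30 bases after the annotated start, 5′ to 3′ on the strand of the gene, in RefSeq annotation of GRCh38.p14. Capitals mark CCGGAAG or its reverse complement (GABPA) and AAGATGGC or its reverse complement (YY1). The windows of MRPL3 (chr3:131502942-131503091, minus strand), MRPL51 (chr12:6493233-6493382, minus strand) and MRPS27 (chr5:72320211-72320360, minus strand) belong to genes with 3 of the 8 largest falls. Those of MRPS17 (chr7:55951757-55951906, plus strand) and MRPL44 (chr2:223957343-223957492, plus strand) belong to the members with the highest positive fold changes and hold neither motif. These examples do not stand for fallen and risen members in general. Of the other large falls, the promoters of MRPL4, MRPL11 and MRPL12 hold neither motif and that of MRPS26 holds CCGGAAG. No promoter was found for MRPL15. Of the other risen members, the promoters of MRPS16, MRPL32 and MRPS18A hold at least 1 of these motifs. No promoter was found for MRPL35 and MRPL42P5.
MRPL3: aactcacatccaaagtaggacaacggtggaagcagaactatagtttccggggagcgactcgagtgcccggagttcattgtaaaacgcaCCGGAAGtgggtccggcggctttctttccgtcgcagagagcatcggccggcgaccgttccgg
MRPL51: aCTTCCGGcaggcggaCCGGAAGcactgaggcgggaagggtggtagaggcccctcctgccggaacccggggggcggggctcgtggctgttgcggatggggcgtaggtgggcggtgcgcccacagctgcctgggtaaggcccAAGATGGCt
MRPS27: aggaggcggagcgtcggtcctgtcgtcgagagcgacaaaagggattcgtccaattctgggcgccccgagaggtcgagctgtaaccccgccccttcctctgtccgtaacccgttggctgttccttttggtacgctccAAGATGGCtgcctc
MRPS17: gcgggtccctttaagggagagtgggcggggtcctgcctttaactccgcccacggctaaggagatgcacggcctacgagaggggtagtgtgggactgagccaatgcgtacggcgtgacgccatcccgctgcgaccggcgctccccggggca
MRPL44: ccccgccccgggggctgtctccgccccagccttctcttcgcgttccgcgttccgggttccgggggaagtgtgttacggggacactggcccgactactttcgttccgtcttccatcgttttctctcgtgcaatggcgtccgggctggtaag

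PAK1, the kinase that the shRNA targets, had a normalized log2 intensity of 11.19 and 11.27 in control cells and 10.44 and 10.52 in PAK1 shRNA cells. This is a log2 fold change of -0.75 with a standard error of 0.08, which left 59.5% of the control level (limma, Benjamini-Hochberg adjusted p = 0.000183). Between 78.9% and 83.2% of all probes were well above background on an array. The number of arrays limits the precision, and an exact two-sided permutation test of 2 against 2 arrays cannot go below 0.333 for a single gene. Of the basal mammary epithelial markers fixed for this report, 8 of 8 were detected well above background on every array. So were 6 of 6 luminal, 5 of 5 leukocyte, 4 of 5 endothelial and 3 of 4 fibroblast markers tested. Among all 22023 genes tested 20761 were, so detection at this level does not tell the cell type. The level of a gene is given below as normalized log2 intensity, which is relative to the other genes of an array after quantile normalization and cannot be compared between probes. In these bulk samples fewer cells of a type and less RNA per cell cannot be told apart.

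The genes for the mitochondrial ribosome were mostly lower in PAK1 shRNA cells. With limma and a Benjamini-Hochberg adjusted p under 0.05 as the threshold, 59 of the 77 members were lower, or 76.6%, where 31.8% of all genes tested were lower. Another 7 members were higher, or 9.09%, against 31% of all genes, and 11 did not pass the test. The median log2 fold change of the members was -0.57 (quartiles -0.97 and -0.25), and that of all genes tested was 0.02 (quartiles -0.40 and 0.36). A fall of at least 2-fold was reached by 19 members, while 8.95% of all genes fell that far. Both PAK1 shRNA arrays lay below both control arrays in 66 members and above both in 9, against 39.7% and 42.2% of all genes, and the groups overlapped for MRPL17 and MRPL33. The members are bright on the array. Among the 2519 genes whose mean log2 intensity lay between the members' quartiles of 12.24 and 13.84, 40.9% were lower.

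**Figure D1:**
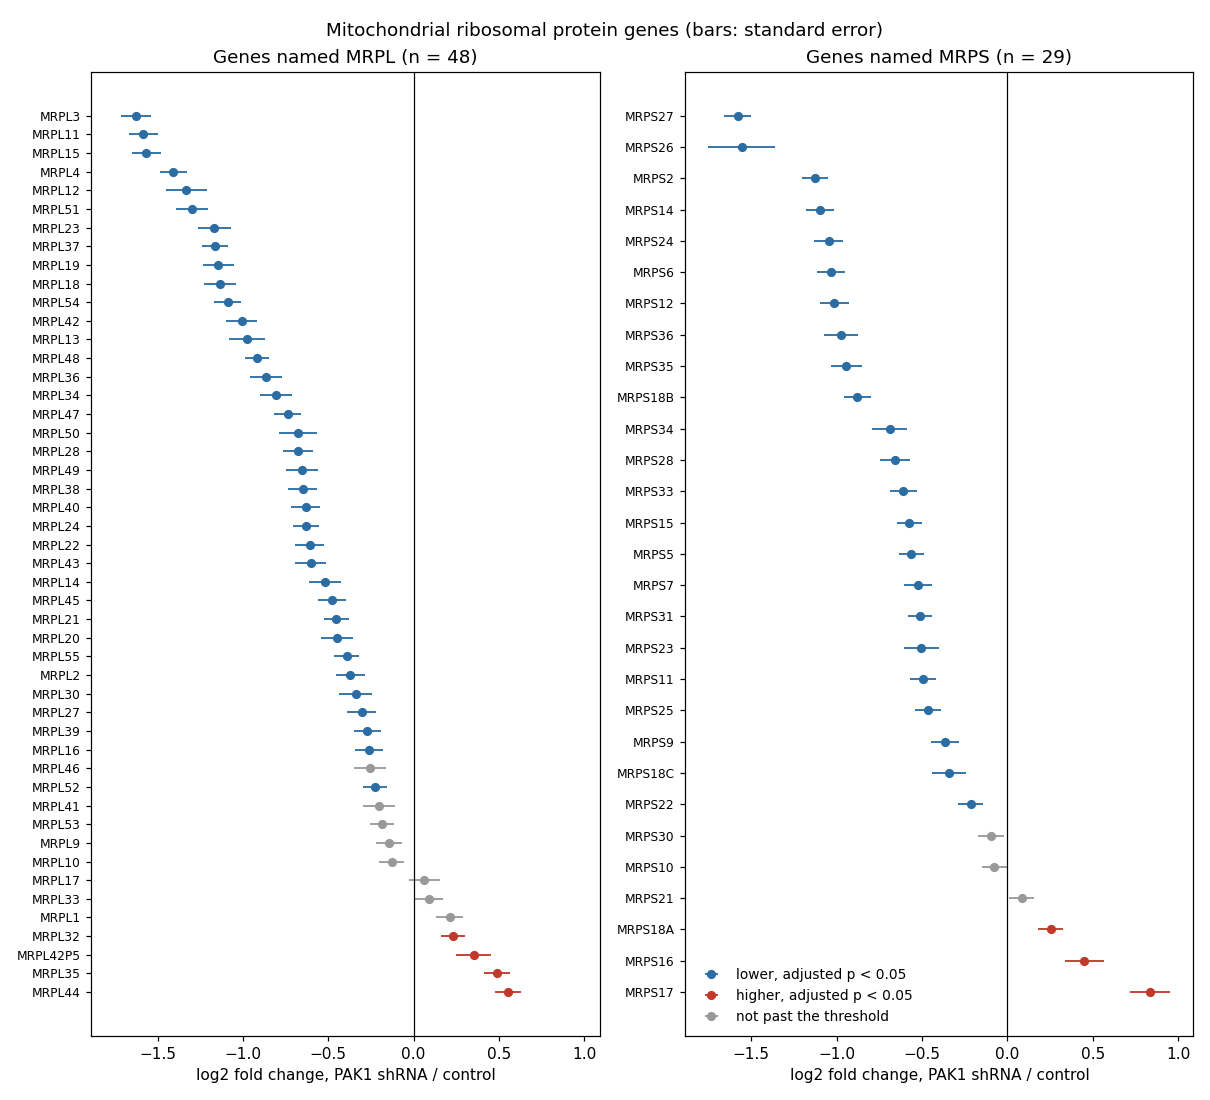
Log2 fold change of PAK1 shRNA over control cells for each of the 77 members, with genes named MRPL on the left and genes named MRPS on the right. Points are limma estimates from 2 arrays per group, bars are standard errors, and colour gives the call. The points run from -1.63 for MRPL3 to 0.84 for MRPS17, and 66 of them lie below 0.

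In the large subunit, 36 of 49 genes were lower, 4 were higher and 9 did not pass, with a median log2 fold change of -0.60. MRPL3, a core protein shared with bacteria, showed the steepest fall among all members. Its log2 intensity was 12.97 and 13.15 in control cells and 11.48 and 11.38 in PAK1 shRNA cells, a log2 fold change of -1.63 (standard error 0.09, limma adjusted p = 1.27e-05) that left 32.4% of the control level. The control and PAK1 shRNA arrays of MRPL3 stood far apart compared with the difference within either group. MRPL15, another conserved core protein, went from 13.34 and 13.47 to 11.89 and 11.79. MRPL4, whose bacterial counterpart lines the tunnel through which the new protein leaves, went from 14.49 and 14.59 to 13.17 and 13.10. These falls corresponded to log2 fold changes of -1.57 and -1.41.

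The genes for the flexible stalk of the large subunit, which receives the translation factors, had unequal calls. MRPL11, at the base of the stalk, was 13.49 and 13.59 in control cells and 12.03 and 11.89 in PAK1 shRNA cells, a log2 fold change of -1.58 (standard error 0.08). MRPL12, the repeated stalk protein, was 12.93 and 13.27 in control cells and 11.82 and 11.72 in PAK1 shRNA cells, or 39.8% of the control level, and both of its probes fell, by 1.33 and 1.35 on the log2 scale. MRPL10, which anchors MRPL12 to the ribosome, had 13.54 and 13.50 against 13.37 and 13.42, a log2 fold change of -0.13 that did not pass (limma adjusted p = 0.175) and that was 0.02 under cyclic loess normalization. All 3 genes had both PAK1 shRNA arrays below both control arrays, MRPL10 by a narrow margin, as did 39.7% of all genes. Whether MRPL10 and MRPL12 differ in their response was not tested.

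Among the large-subunit proteins added in the mitochondrial lineage, MRPL51 went from 15.29 and 15.46 to 14.14 and 14.02, a log2 fold change of -1.30. All its PAK1 shRNA values lay below its control values, as in 39.7% of all genes. MRPL42 fell by 1.01 on the log2 scale. MRPL45, which holds the ribosome at the inner membrane, fell by 0.48, with 13.70 and 13.83 in control cells and 13.32 and 13.25 in PAK1 shRNA cells. MRPL41 and MRPS30 did not pass, with log2 fold changes of -0.20 and -0.10 (limma adjusted p = 0.10 and 0.32). Counted together, 13 of 19 such proteins of the large subunit were lower and 2 were higher, and of the 30 large-subunit proteins with a bacterial counterpart 23 were lower and 2 were higher.

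The small subunit, which holds the messenger RNA and the decoding centre, showed the same direction. Of its 26 genes 22 were lower, 2 were higher and 2 did not pass, with a median log2 fold change of -0.57. MRPS27, a pentatricopeptide-repeat protein, had 13.51 and 13.60 in control cells and 12.01 and 11.95 in PAK1 shRNA cells, a log2 fold change of -1.58 (standard error 0.08, limma adjusted p = 7.79e-06). MRPS26 had 13.92 and 14.56 against 12.75 and 12.62. The control arrays of MRPS26 lay 0.64 apart, the widest gap among the members measured on both of them, and its log2 fold change of -1.56 had the largest standard error among the members, 0.20. MRPS2, a conserved protein, and MRPS12, the conserved protein at the decoding centre, fell by 1.13 and 1.02 on the log2 scale. MRPS7, a conserved protein of the head, fell by 0.52. MRPS22, added in the mitochondrial lineage, was at the edge of the threshold with a log2 fold change of -0.22 (limma adjusted p = 0.041), and it did not pass when any 1 array was left out (-0.26 to -0.18). All 10 of the small-subunit proteins specific to mitochondria were lower, from -1.58 to -0.22 on the log2 scale with a median of -0.65, and of the 16 with a bacterial counterpart 12 were lower and 2 were higher.

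Apart from the 8 members with the largest falls, 11 were lower by at least 2-fold, with log2 fold changes from -1.17 to -1.01. These were MRPL18, MRPL19, MRPL23, MRPL37, MRPL42, MRPL54, MRPS2, MRPS6, MRPS12, MRPS14 and MRPS24. Another 19 members fell by 1.5-fold to 2-fold, 13 of them in the large and 5 in the small subunit, together with MRPS36. The remaining 21 that passed fell by less than 1.5-fold, down to -0.22 on the log2 scale. MRPL49 was among the lower members with a log2 fold change of -0.65, which rests on 3 arrays because its spot on control 2 was marked as an outlier. The 11 members that did not pass were MRPL1, MRPL9, MRPL10, MRPL17, MRPL33, MRPL41, MRPL46, MRPL53, MRPS10, MRPS21 and MRPS30, with log2 fold changes from -0.25 to 0.21. The genes of these counts that lie outside the rule for named members were named after their values were seen.

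The 7 higher members were 4 genes of the large subunit, 2 of the small subunit and the pseudogene MRPL42P5. MRPS17, a conserved protein of the small subunit, had 12.90 and 13.20 in control cells and 13.80 and 13.97 in PAK1 shRNA cells, a log2 fold change of 0.84 (standard error 0.12, limma adjusted p = 0.00086). MRPL44, which carries an RNase III fold, had 11.07 and 11.17 against 11.65 and 11.70, a log2 fold change of 0.55. MRPL35 had 11.90 and 11.84 against 12.40 and 12.32, a log2 fold change of 0.49. In each of these 3 genes both PAK1 shRNA arrays were above both control arrays, as in 42.2% of all genes. These 3 were the members that stayed higher in all 17 limma settings tried. MRPL32, which the inner-membrane protease cuts before assembly, and MRPS18A rose by 0.23 and 0.25 on the log2 scale. Without PAK1 shRNA array 1, MRPL32, MRPS18A and the pseudogene MRPL42P5 did not pass (0.24, 0.27 and 0.27). Without PAK1 shRNA array 2, MRPL32, MRPS18A and MRPS16 did not pass (0.23, 0.24 and 0.41). MRPL32 and MRPS18A did not pass without control 1 either (0.21 and 0.22), nor MRPL42P5 without control 2 (0.24).

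**Figure D2:**
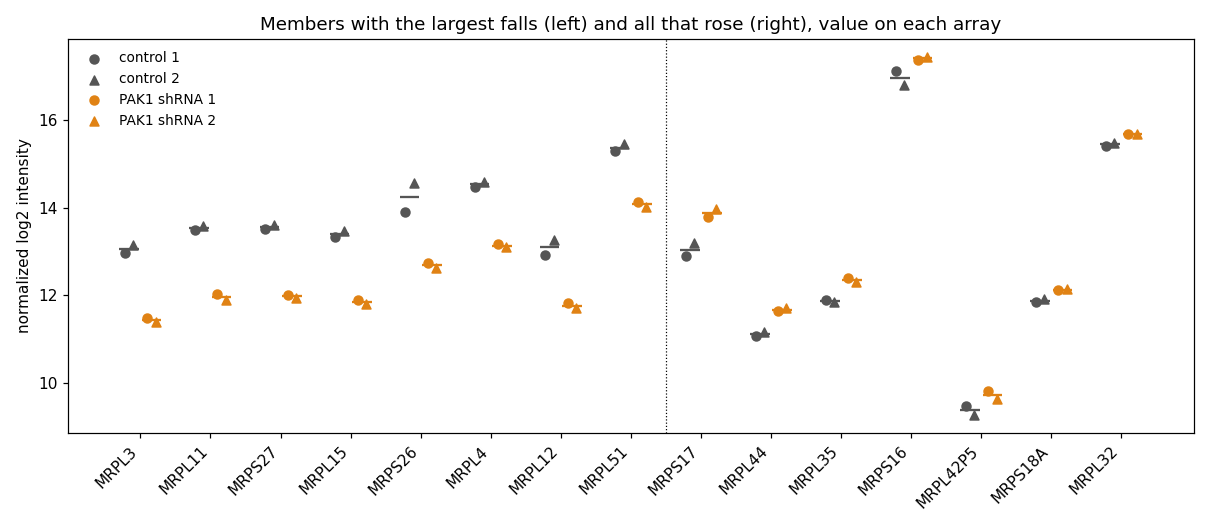
Normalized log2 intensity of the 8 members with the largest falls (left of the dotted line) and the 7 that rose (right) on each of the 4 arrays. Circles and triangles are array 1 and 2 of a group, grey is control, orange is PAK1 shRNA and short lines are group means. The groups do not overlap in any of these genes, which were picked by the size of their change. Over all genes both PAK1 shRNA arrays lay below both control arrays in 39.7% and above both in 42.2%. Heights of different genes cannot be compared.

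Where a gene had several probes, its value could depend on the probe taken, and the place of the probes within the transcripts was not analysed here. Of the 14 genes with more than 1 probe, MRPS16 had probes with opposite calls. The MRPS16 probe at chr10:75008696-75008755 (hg19, minus strand) had 17.13 and 16.81 in control cells and 17.38 and 17.46 in PAK1 shRNA cells, a rise of 0.45 on the log2 scale. The MRPS16 probe at chr10:75009139-75009198 had 11.45 and 11.11 against 10.59 and 10.50, a log2 fold change of -0.73. Both values passed the test of each probe apart, in which 32.6% of all probes were lower and 31.1% higher. The count of MRPS16 among the higher genes rests on the first probe, and with the mean over both probes its log2 fold change was -0.14. MRPS17 rose at chr7:56022855-56022914, while its probe at chr7:55954984-55955043 had a log2 fold change of -0.02 that did not pass. That second MRPS17 probe was far dimmer, with 6.39 and 6.67 in control cells and 6.58 and 6.44 in PAK1 shRNA cells, so it says little about the rise. The 3 probes of MRPL19 were all lower, by 1.14, 0.95 and 0.27 on the log2 scale, from chr2:75882659-75882718 to chr2:75897810-75897869. MRPL42P5, the pseudogene, was higher by 0.35 while MRPL42 was lower, and since the copies are closely alike their probes can share signal and both values are uncertain.

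**Figure D3:**
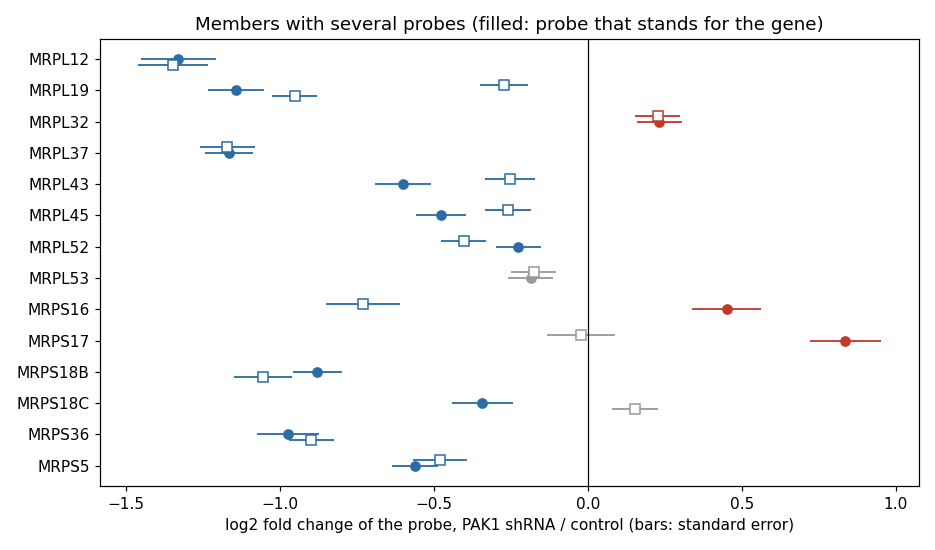
Log2 fold change of each probe, PAK1 shRNA over control, for the 14 members with several probes. Filled points are the probes that stand for the gene and open squares the other probes, bars are standard errors, blue is lower, red higher and grey not past the threshold. The MRPS16 probes lie at 0.45 and -0.73, on opposite sides of 0, whereas those of MRPL12 and MRPL37 nearly coincide.

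The 3 paralogs of MRPS18 took different values. MRPS18B, which sits in the small subunit, fell from 14.41 and 14.53 to 13.61 and 13.57, a log2 fold change of -0.88. MRPS18C, the paralog at the conserved place of the bacterial protein, fell by 0.34 at its brighter probe, from 13.48 and 13.74 to 13.25 and 13.29. Its other probe did not pass with 0.15 and was far dimmer, with 7.39 and 7.39 in control cells against 7.58 and 7.51. With the mean over both probes, MRPS18C had a log2 fold change of -0.09 and did not pass, nor did it pass without control 2 (-0.22), PAK1 shRNA 1 (-0.32) or PAK1 shRNA 2 (-0.36). MRPS18A, which sits in the large subunit, went from 11.84 and 11.91 to 12.12 and 12.14. The groups did not overlap in any of the 3 genes. Over all genes both PAK1 shRNA arrays lay below both control arrays in 39.7% and above both in 42.2%. Differences between the paralogs were not tested. MRPS36, no longer counted as a ribosomal protein, fell by 0.97 on the log2 scale, with both of its probes lower.

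The direction was the same whichever arrays were set against each other. The median difference over the members was -0.52 and -0.61 for PAK1 shRNA 1 against control 1 and control 2, and -0.54 and -0.65 for PAK1 shRNA 2. The 4 differences share arrays and are not independent. Within groups the members also moved together to a smaller extent. Control 2 was above control 1 in 64 of 76 members, with a median difference of 0.13, while over all genes it was above in 10952 of 22004, with a median of -0.0005. PAK1 shRNA 2 was above PAK1 shRNA 1 in 20 of 77 members, with a median difference of -0.04, and in 10177 of 22020 of all genes, with a median of -0.01. The part of such array-wide shifts in the fold changes was not tested.

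Other genes of mitochondrial translation were taken from lists drawn up for this report. Of 7 subunit genes with other names, 5 were lower and 2 were higher, with a median of -0.48, where 31.8% and 31% of all genes were lower and higher. CHCHD1 and AURKAIP1, small-subunit proteins, fell by 0.90 and 0.48 on the log2 scale. GADD45GIP1, MRPL58 (ICT1 on the array) and MRPL57 (MRP63 on the array), all of the large subunit, fell by 0.87, 0.62 and 0.27. The small-subunit proteins PTCD3, with a pentatricopeptide repeat, and DAP3, which binds GTP, rose by 0.63 and 0.20. The direction of these 2 was thus opposite to that of most subunits.

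The factors that work on the ribosome went both ways. Of 15 translation factors 6 were lower (40%), 4 were higher (26.7%) and 5 did not pass, where 31.8% and 31% of all genes were lower and higher, and their median log2 fold change of -0.09 became 0.04 with 75th percentile scaling, 0.08 with cyclic loess and 0.005 with the spots of marked background left out. MTFMT, which formylates the initiator methionine, fell from 9.87 and 10.03 to 8.46 and 8.30, a log2 fold change of -1.57. SLIRP (C14orf156 on the array), which stabilizes mitochondrial messenger RNA with LRPPRC, and MTRFR (C12orf65 on the array), which rescues stalled ribosomes, fell by 0.97 and 0.71. The release factors MTRF1 and MTRF1L rose by 0.83 and 0.43, and the recycling factor MRRF rose by 0.43. Of 24 assembly factors 12 were lower, 4 were higher and 8 did not pass, with a median of -0.28. MTERF3 (MTERFD1 on the array), the ribosomal RNA methyltransferase MRM1 and NGRN, which helps to keep the large ribosomal RNA, fell by 1.15, 1.04 and 0.80. The methyltransferase of the small ribosomal RNA METTL15 (METT5D1 on the array), METTL17 (METT11D1 on the array) and NSUN4 rose by 0.78, 0.39 and 0.27.

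The regulators of mitochondrial gene expression also went both ways, with 8 of 14 lower (57.1%), 4 higher (28.6%) and a median of -0.35. Among all genes tested 31.8% were lower and 31% higher, so the share of higher regulators was near that of all genes. TFAM, which packages mitochondrial DNA and starts its transcription, was 13.39 and 13.49 in control cells and 11.85 and 11.70 in PAK1 shRNA cells, or 31.5% of the control level. NRF1, a nuclear activator of genes for mitochondrial proteins, and the coactivator PPARGC1B fell by 0.93 and 0.86 on the log2 scale. GABPB1, the partner subunit of GABPA, rose by 0.74, MYC by 0.66 and TEFM (C17orf42 on the array), the mitochondrial elongation factor, by 0.40. GABPA itself was lower by 0.78, with 10.46 and 10.70 against 9.77 and 9.82, and YY1 by 0.34.

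**Figure D4:**
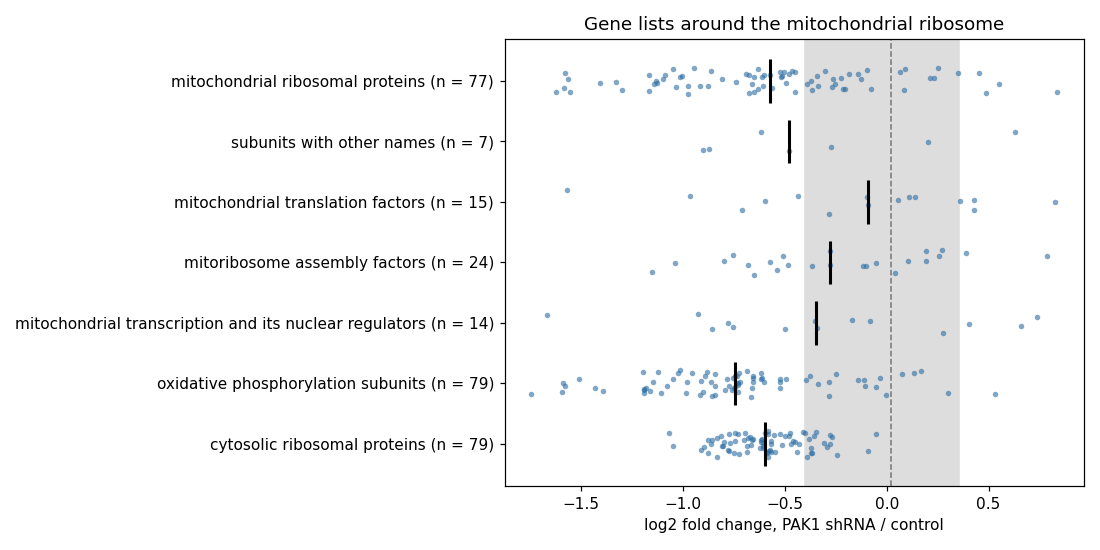
Log2 fold change of PAK1 shRNA over control for each gene (points) of 7 lists, with the list median as a black bar. The dashed line is the median of all genes tested, 0.02, and the grey band their quartiles, -0.40 to 0.36. The medians of the mitochondrial ribosomal proteins, subunits with other names, oxidative phosphorylation subunits and cytosolic ribosomal proteins lie left of the band, while that of the translation factors, positive under cyclic loess and 75th percentile scaling, is at -0.09.

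The fall was not confined to the mitochondrial ribosome. Of 79 genes taken by name as nuclear-encoded oxidative phosphorylation subunits, with close paralogs, 67 were lower and 1 was higher, with a median of -0.75, and of 79 cytosolic ribosomal proteins 77 were lower and 0 were higher, with a median of -0.60. Larger changes ran through the same arrays. All 20 cell cycle genes were lower, with a median log2 fold change of -3.54, and their mean log2 intensity was 13.47 and 13.50 in control cells and 10.06 and 9.98 in PAK1 shRNA cells. All 12 interferon-stimulated genes were higher, with a median of 6.59, and their mean log2 intensity went from 9.57 and 9.53 to 15.88 and 16.04. Of the markers of other cells, 3 of 4 fibroblast markers tested rose and 1 fell, with mean levels of 8.59 and 8.37 against 9.20 and 9.23. Leukocyte markers rose in 2 of 5, with means of 8.87 and 8.85 against 9.30 and 9.27, endothelial markers fell in 2 and rose in 1 of 5, with 7.49 and 7.51 against 7.25 and 7.24, and luminal markers fell in 2 and rose in 2 of 6, with 10.97 and 10.97 against 11.05 and 11.05. The basal markers fell in 3 and rose in 4 of 8. For these short marker lists too, 31.8% of all genes were lower and 31% higher. The part of these shifts in the lower values of the members was not tested.

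In the promoters, both motifs were common among the members. RefSeq promoters, from 250 bases before to 50 after the start, were found for 67 of the 77 members, and not for MRPL2, MRPL10, MRPL13, MRPL15, MRPL21, MRPL23, MRPL35, MRPL42P5, MRPS28 and MRPS36. On either strand of any promoter of a gene, CCGGAAG stood in 43.3% of them against 12.2% of all genes and 16.5% of protein-coding genes, and AAGATGGC in 31.3% against 3.5% and 4.7%. The NRF1 motif, GCGC and TGCGC with any base between them, stood in 11.9% against 7% of all genes and 9.7% of protein-coding genes, and the E-box CACGTG in 13.4% against 8.8% and 10.9%. At least 1 of the 4 motifs stood in 71.6% of the members, 26.2% of all genes and 34.1% of protein-coding genes. The members that were lower and the other members held them as follows. CCGGAAG was present in 44.2% of the 52 lower members and 40% of the 15 others, AAGATGGC in 30.8% and 33.3%, the NRF1 motif in 13.5% and 6.7%, CACGTG in 9 of the lower and 0 of the others, and at least 1 of the 4 in 73.1% and 66.7%. The median log2 fold change was -0.51 with CCGGAAG and -0.59 without it, and -0.65 with AAGATGGC and -0.54 without it. It was -0.50 with the NRF1 motif and -0.60 without it, and -0.61 with CACGTG and -0.54 without it. A match of letters is a description of the sequence and not a bound site.

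Members often shared a promoter region with a neighbour that runs the other way. A protein-coding gene started head to head within 1000 bases of 19 of the 67 members, or 28.4%, against 12.3% of protein-coding genes. Of the 18 such neighbours that were tested, 6 were lower and 4 were higher, with a median log2 fold change of -0.19, where 31.8% and 31% of all genes were lower and higher. The 18 include the members MRPL46 and MRPS11, each counted as the neighbour of the other. MRPL51 stands opposite NCAPD2, a condensin subunit with a log2 fold change of -3.33, and MRPL18 opposite TCP1, a chaperonin subunit with -0.94. MRPL30, which fell by 0.34, stands opposite MITD1, which rose by 0.65. MRPS7, which fell by 0.52, stands opposite GGA3, a sorting adaptor that rose by 0.88. MRPL46 and MRPS11 face each other 320 bases apart, with log2 fold changes of -0.25, which did not pass, and -0.49. These pairs were named after their values were seen.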

How the data were processed

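Agilent Feature Extraction (version 9.5 per the labels' processing notes, 9.5.3.1 in the scanner header) gave the spot values. Spot intensity, not normalized between arrays, was deposited for each array. A second deposited table, of log2 values, served as an alternative. It covered 75 members, had array medians from 9.40 to 9.42 and followed the log2 values computed here on each array (r from 0.9995 to 0.9997 over 18157 genes) without centring of genes, in the direction of the intensities.

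Here normexp (offset 50) was applied to the mean signals, control spots were dropped, and the arrays were quantile normalized. The normexp parameters were fitted without spots whose local background was marked as an outlier, since 8 and 18 spots with a local background above 100 moved the fit on all spots on the control arrays (background mean -666 and -740, against -10.7 and -10.2 on the PAK1 shRNA arrays). Outlier spots were removed before the remaining spots were averaged per probe. A probe was kept if both arrays of 1 or both groups had it well above background, and where a gene had several the brightest by mean was taken. The test was limma's (lmFit, then eBayes; version 3.58.1, R 4.3.3), adjusted by Benjamini-Hochberg over 22023 genes at a threshold of 0.05. Only the limma test, and not the steps before it, was run on simulated normalized values of 22001 genes, few of them changed. It recovered 28% of changes of 0.5 on the log2 scale and 96% of changes of 1, and called 4 unchanged genes. In the real data far more genes passed, so these rates need not hold there. Members that are named are the 8 largest falls, the risen ones, those with a settled role and those with opposed probes, beside other genes named as such, and in each list the 3 largest changes each way. The members and lists were chosen with earlier results of these data known. Alternatives covered the normexp fit, background correction, scaling, filter, marked spots, probe rule, block, test, threshold and each array left out. Coordinates of probes come from the scanner output (hg19), and promoters come from RefSeq tables of GRCh38.p14. The series text speaks of tumor derived cells, while the labels and methods name the cell line, which was followed. All arrays lay on a single slide, which could not be fitted as a block.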

Additional observations from a re-analysis of the deposited data

How the results depend on the processing

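In 17 limma settings 50 members were lower and 3 higher throughout, and all 59 lower members kept a negative sign. Of 459 values of the 27 named members under alternatives, 423 kept direction and side of the threshold, 33 lost it, 1 gained it and 2 reversed: MRPL10 under cyclic loess (0.0213) and MRPS16 as the mean over its probes (-0.14). The median of the members moved to -0.48 under cyclic loess. Median centring raised the median of all genes by 0.12, to 0.14, while that of the members was -0.63. A fold of at least 1.5 left 38 lower and 1 higher, and an adjusted p under 0.01 left 3 higher. The unpaired t-test is named in the study's general statistics and not for the arrays. With a Benjamini-Hochberg adjustment added here, it gave 43 lower and 4 higher members (53 and 5 unadjusted). Of all genes 21.6% were lower and 19.8% higher by the adjusted t-test. Subunits with other names had a median of -0.39 with 75th percentile scaling and -0.33 under cyclic loess, translation factors 0.0402 and 0.0806, and 0.0053 with spots of marked background left out. Assembly factors had -0.21 with normexp on all spots, and regulators -0.26 under cyclic loess. The cause was not tested. Leaving out each array in turn gave 52 to 57 lower and 4 to 6 higher members, member medians of -0.62 to -0.52, and medians of -0.0858 to -0.0230 for translation factors, -0.32 to -0.21 for assembly factors, -0.52 to -0.44 for the other subunits and -0.38 to -0.33 for regulators. PAK1 kept its direction and call in all settings, from -0.86 to -0.66. Arrays with the same replicate number shared no deviation from their group means (r = 0.0088 over 27517 probes). This cannot settle whether same-numbered samples were handled together, which the labels do not say. With the replicate number as a block 59 members were lower and 7 higher, against 32.1% and 31.7% of all genes. The medians were as without the block, and PAK1 was at -0.75. A lone array left in a group was assumed to vary like the others.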
